A study of Mus musculus with 4 samples.

Results

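Lx7, Lx8 and Lx9 are old rodent families of LINE-1, and their loci were taken from the LINE tables by repeat name, as every locus called Lx followed by 7, 8, 9 or 10. The tables list 22177 such loci among 145916 LINE loci, of which 128558 are LINE-1. These are 5297 Lx7, 9762 Lx8 and 7118 Lx9 loci, and no listed locus carried the name Lx10. RNA was sequenced from 4 groups of strain C57BL/6J: WT and Lsh-/- tail-tip fibroblasts of adult mice, and WT and Lsh-/- whole embryos at E13.5. Each group is 1 library, so no difference between genotypes has a replicate check and no p-value is given. The fibroblasts were transformed with SV40 and, per the study's methods, came from an outside laboratory. Control embryos are WT by their label, but the methods mention tissue from heterozygotes and homozygotes. The comparison asks whether these elements are transcribed differently when Lsh, a chromatin remodelling helicase needed for normal DNA methylation, is missing.

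LINE-1 elements are retrotransposons that copy themselves through RNA and reverse transcription, starting from a promoter in their own 5′ end. Most copies were cut short when they were inserted and lack that promoter. Lx families spread early in the history of mice and rats, so their copies have collected many mutations, cannot move, and differ enough from each other for a read to be placed at a single locus. Such fragments lie in introns and between genes, where RNA that began elsewhere can run through them. A count on an Lx locus is therefore RNA from that place, not proof of a LINE-1 transcript.

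The annotated fragments were short, with a median width of 324 bases and a range of 52 to 5679. Introns held 66.5% of the members, of which 4390 lay on the strand of the gene and 10363 on the opposite strand. A further 6834 loci (30.8%) lay outside annotated genes, 237 overlapped an exon on the same strand and 335 an exon on the opposite strand. Their median CpG density was 5.25 per kb and their median GC content 41.8%. The CpG is the site of DNA methylation in mammals, and 24.2% of the members held none.

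Sequences are shown for loci that carried the largest differences, and how far they have mutated was not measured. Each window is the central 150 bases of the locus, or the whole locus where it is shorter, read from mm9 on the strand of the element, with every CpG in capitals. Windows that overlapped an exon were left out. Of 14 windows, 6 held no CpG, and the 1967 bases held 10 CpG in all. In fibroblasts, the 4 loci outside genes with the most counts among those above 5 on the log2 scale were:
Lx8 on chr8:30633065-30633214, minus strand, near Unc5d: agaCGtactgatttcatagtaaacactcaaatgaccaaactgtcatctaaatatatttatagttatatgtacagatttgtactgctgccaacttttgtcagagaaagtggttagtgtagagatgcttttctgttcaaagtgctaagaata
Lx7 on chr14:113702779-113702928, plus strand, near Tpm3-rs7: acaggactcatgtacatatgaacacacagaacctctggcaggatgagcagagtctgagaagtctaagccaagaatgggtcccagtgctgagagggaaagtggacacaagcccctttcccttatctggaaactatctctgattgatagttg
Lx8 on chr7:13781387-13781536, plus strand, near Vmn1r88: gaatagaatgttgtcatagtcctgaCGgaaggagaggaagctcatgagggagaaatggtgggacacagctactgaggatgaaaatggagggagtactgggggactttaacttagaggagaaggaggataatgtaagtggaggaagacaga
Lx7 on chr10:104249008-104249157, plus strand, near Tmtc2: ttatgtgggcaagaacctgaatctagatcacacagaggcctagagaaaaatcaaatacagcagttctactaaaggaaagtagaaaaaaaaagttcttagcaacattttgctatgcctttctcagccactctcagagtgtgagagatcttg

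In embryos, the 6 loci with the most counts among those above 5 included 3 fragments around the olfactory receptor gene Olfr857, and 1 locus that was also above 5 in fibroblasts and is shown with the next set. Of the remaining 5, these 4 are shown:
Lx9 on chr9:19514780-19514929, minus strand, near Olfr857: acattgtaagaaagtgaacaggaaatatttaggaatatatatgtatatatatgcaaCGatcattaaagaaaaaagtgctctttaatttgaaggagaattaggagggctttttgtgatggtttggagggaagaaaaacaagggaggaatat
Lx9 on chr9:19539612-19539761, minus strand, near Olfr857: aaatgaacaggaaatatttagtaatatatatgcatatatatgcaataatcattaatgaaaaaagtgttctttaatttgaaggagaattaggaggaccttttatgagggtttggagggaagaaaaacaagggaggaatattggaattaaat
Lx8 on chr9:19518749-19518898, plus strand, near Olfr857: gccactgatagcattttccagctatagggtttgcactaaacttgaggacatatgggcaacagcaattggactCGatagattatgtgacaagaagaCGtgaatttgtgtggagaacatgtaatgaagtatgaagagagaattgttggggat
Lx9 on chr7:55733554-55733703, plus strand, near Mrgprx2: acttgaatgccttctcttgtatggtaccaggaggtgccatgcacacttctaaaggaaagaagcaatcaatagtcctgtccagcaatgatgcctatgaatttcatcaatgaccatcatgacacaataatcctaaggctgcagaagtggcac

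Among the 91 pairs of windows, both Lx9 windows on chromosome 9 shared the longest run of identical bases, 33, and no other pair shared more than 12. The 6 loci above 5 in both tissues were:
Lx9 on chr16:80301202-80301329, minus strand, near Ncam2: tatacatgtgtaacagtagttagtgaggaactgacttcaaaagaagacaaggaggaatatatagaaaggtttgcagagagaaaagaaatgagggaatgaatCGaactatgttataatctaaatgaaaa
Lx9 on chr16:80301693-80301786, plus strand, near Ncam2: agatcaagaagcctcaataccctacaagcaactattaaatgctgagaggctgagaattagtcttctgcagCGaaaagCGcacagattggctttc
Lx9 on chr16:39654055-39654149, plus strand, near Igsf11: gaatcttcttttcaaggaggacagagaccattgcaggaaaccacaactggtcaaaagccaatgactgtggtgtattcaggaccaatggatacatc
Lx7 on chr12:116164246-116164395, plus strand, near Gm7112: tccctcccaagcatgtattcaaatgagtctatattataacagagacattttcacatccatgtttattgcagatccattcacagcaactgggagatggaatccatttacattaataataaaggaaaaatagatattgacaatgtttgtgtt
Lx7 on chr6:25896996-25897145, minus strand, near Pot1a: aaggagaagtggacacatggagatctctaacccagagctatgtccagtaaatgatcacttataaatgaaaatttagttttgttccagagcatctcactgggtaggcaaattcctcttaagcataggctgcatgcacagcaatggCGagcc
Lx8 on chr8:58037178-58037327, minus strand, near Gm7360: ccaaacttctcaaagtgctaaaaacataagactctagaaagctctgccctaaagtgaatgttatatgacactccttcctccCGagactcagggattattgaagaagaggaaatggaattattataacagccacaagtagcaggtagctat

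Some facts of the libraries bear on all results. The 6 tables of a library together held between 19216257 and 33904311 counts. The targeted gene Hells, which encodes Lsh, can be read only where intervals of the tables cover its exons. Over all 15 such intervals WT fibroblasts had 7971 counts and Lsh-/- fibroblasts 6356, and 3198 and 2110 in the embryos. In 2 of them, picked after their values were seen, both Lsh-/- libraries had 0 counts against 937 in WT fibroblasts and 427 in WT embryos. Intervals over Xist held 16828 counts (WT fibroblasts) and 53 (Lsh-/- fibroblasts), and 27 members on chromosome Y had 0 and 101 counts. The fibroblast pair thus differs in sex as well as genotype, and the shares above 5 on the elements and near LTR loci are also given without chromosomes X and Y. In the embryos Xist had 0 and 46 counts and the Y members 335 and 378. Of 10 fibroblast markers, 9 were covered, with summed counts of 169753 (WT fibroblasts) and 130032 (Lsh-/- fibroblasts). In the embryos the same markers summed higher, to 918989 (WT) and 879109 (Lsh-/-), so their sum does not set the fibroblasts apart. Lum was at 0 in both fibroblast libraries and Dcn had 11 and 42 counts. The 10 embryo markers summed to 855 and 1336 in the fibroblasts and to 19921 and 16362 in the embryos. Of these, Myod1 rested on 0 counts (WT fibroblasts) and 363 (Lsh-/- fibroblasts), and Stmn2 on 2 and 493, while Tubb3 had 848 and 410. The liver markers differed between the embryo libraries: Afp had 2806 counts in WT and 315 in Lsh-/-, and Alb 354 and 61, while the muscle genes Actc1 (11170 and 11125) and Myh3 (3366 and 3239) were close. Their part in the results was not tested.

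RNA on these loci was sparse. WT fibroblasts listed 10668 of the members with 54088 counts, and Lsh-/- fibroblasts 9183 members with 58203. WT embryos listed 12040 members with 128073 counts, and Lsh-/- embryos 10616 with 118827. Fewer members were thus listed in each Lsh-/- library than in the WT library of its pair, and so were fewer LINE loci at large. All listed LINE loci numbered 67691 in WT and 62297 in Lsh-/- fibroblasts, and 78132 and 68856 in the embryos. The members took 11.3% and 12.8% of LINE counts in WT and Lsh-/- fibroblasts, and 15.0% and 14.7% in the embryos. The median listed locus held 2 counts in either fibroblast library, 3 in WT embryos and 4 in Lsh-/- embryos. Per length of listed loci, the level was 11.1 counts per kb in WT and 13.6 in Lsh-/- fibroblasts, and 23.0 and 23.7 in the embryos.

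The loci with the most RNA overlapped exons or lay outside genes, and their counts were mostly close between the genotypes. The highest was an Lx7 on chr12:110898902-110899486, in an exon of Rian, an imprinted long non-coding RNA expressed from the maternal chromosome. Its counts were 18781 in WT embryos and 15691 in Lsh-/- embryos, and 15 and 42 in the fibroblasts. In the WT embryos this 1 locus held 44.1% of all Lx7 counts. Its embryonic ratio of Lsh-/- over WT was 0.867, with a 95% counting interval of 0.849 to 0.886. The highest locus in fibroblasts was an Lx8 on chr17:32902844-32903833, outside genes and 4348 bases from the zinc finger gene Zfp871. It had 919 counts in WT and 994 in Lsh-/- fibroblasts (ratio 1.05, 0.957 to 1.15), and 1369 and 1177 in the embryos. The others of the top 4 in fibroblasts overlapped exons on the opposite strand. An Lx8 in Zfp871 itself, on chr17:32907945-32908542, had 381 and 406 counts there, and an Lx8 on chr10:82830349-82830703 in D10Wsu102e had 350 and 418. An Lx8 on chr3:54940296-54940754 in Spg20, which encodes spartin, had 268 and 367 (ratio 1.33, 1.13 to 1.56), higher in Lsh-/- beyond counting error, and 704 and 668 in the embryos (ratio 0.985, 0.885 to 1.10). An Lx7 on chrX:61751101-61751647, outside genes and 220930 bases from Slitrk4, had 1996 and 1905 counts in the embryos (ratio 0.991, 0.930 to 1.06) and only 7 and 5 in the fibroblasts. The most counted Lx9 of each tissue overlapped an exon too, of Atpbd4 with 230 and 213 counts in the fibroblasts and of Alg11, a mannosyltransferase of the N-glycan pathway, with 360 and 364 in the embryos. Such intervals cover counting error only.

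Fold changes were computed for loci with at least 10 counts in a pair of libraries, after scaling the libraries and adding a prior count, a small fraction of a read set at the default for the exact test in edgeR. In fibroblasts 2156 members passed this filter and in embryos 3880. In either tissue the middle of the distribution lay at 0. The median log2 fold change was -0.05 in fibroblasts (95% interval over loci, -0.05 to 0.03) and 0.04 in embryos (-0.05 to 0.05), where a locus of equal counts sits at -0.05 and 0.05. In fibroblasts 21.3% of the members were above 1 and 20.7% below -1, and without chromosomes X and Y 20.7% and 21.3%. Over all LINE loci these shares were 24.1% and 18.2%. In embryos 21.3% were above 1 and 20.5% below -1, against 21.3% and 20.7% of all LINE loci. With 18 counts in the median fibroblast pair and 20 in the median embryo pair, many of these differences lie within counting error. The 95% counting interval of the ratio left out 1 for 299 of the 459 fibroblast members above 1 and for 224 of the 447 below -1. It did so for 500 of 828 and 467 of 796 in the embryos. The balance in fibroblasts rests on the scaling: with the total over all 6 tables as library size, which adds 0.68 to every log2 fold change, 37.9% were above 1 and 10.1% below -1.

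The tails of the distribution were another matter. Above 5, the limit drawn in the study, lay 160 of 2156 members in fibroblasts, 7.42% (95% Wilson interval over loci, 6.39 to 8.60), beside 8.74% of all LINE loci tested. Below -5 lay 32 members, 1.48%, beside 1.04% of all LINE loci. In the embryos 106 of 3880 members were above 5, 2.73% (2.26 to 3.29), beside 3.09% of all LINE loci. Below -5 were 91 members, 2.35%, beside 2.89%. So over all members the upper tail in fibroblasts held 5 times the loci of the lower tail, and in embryos the tails were of like size. In fibroblast introns 24 members lay above 5 and 24 below -5, and outside genes 127 and 7. In fibroblasts the members' share above 5 was below that of all LINE-1 loci, 10.0% (9.51 to 10.6), and of the Lx to Lx6 families, 15.4%. It was above that of the older L1MA and L1MB families, 2.55%. In embryos all LINE-1 loci stood at 3.32%, near the members. Loci above 5 were thus not particular to the members. Without chromosomes X and Y the members' share above 5 was 6.95% in fibroblasts and 2.84% in embryos. All 4 tested members on chromosome Y were above 5 in fibroblasts.

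What the limit of 5 separates is loci with and without reads in 1 library. With so small a prior count, any tested locus at 0 in 1 library passes it. Of the 160 fibroblast loci above 5, 155 had 0 counts in WT; all 160 together had 10 counts in WT and 7497 in Lsh-/-. In Lsh-/- the median of these loci was 20 counts and the highest 543, and 33 had at least 50. The 106 embryo loci had 0 counts in WT and 1556 in Lsh-/-, with a median of 12 and a highest of 72, and 2 had at least 50. With each 0 set to a floor of 3 counts, all 160 and all 106 stayed above 1, their medians were 2.69 and 2.05, and 19 and 0 stayed above 5. No member lay near the limit from below: the highest value under it was 4.32 in fibroblasts and 4.35 in embryos, and the lowest over it 5.04 and 6.37.

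Depth separated the tissues further. Among members of 50 or more counts, 33 of 354 in fibroblasts were above 5 (9.32%, 6.71 to 12.8) and 3 below -5. In embryos 2 of 759 were above 5 (0.264%, 0.0723 to 0.956) and 1 below -5. Among members of 10 to 19 counts, the embryos had 91 of 1848 above 5 and 89 below -5, and the fibroblasts 78 of 1154 above and 26 below. Over all members the upper tail of the fibroblasts thus held at every depth, and most embryo loci past the limit had few reads. In genes, however, the fibroblasts had 19 above 5 and 22 below -5 at 10 to 19 counts, and 9 and 2 at 20 to 49. At 20 to 49 counts the embryos had 13 of 1273 above 5 and 1 below -5. At all depths they had 46 above and 17 below outside genes, and 59 and 67 in introns. By depth, the embryo tails matched in number only at 10 to 19 counts. There 35 above and 17 below lay outside genes, and 56 and 72 in genes.

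**Figure D1:**
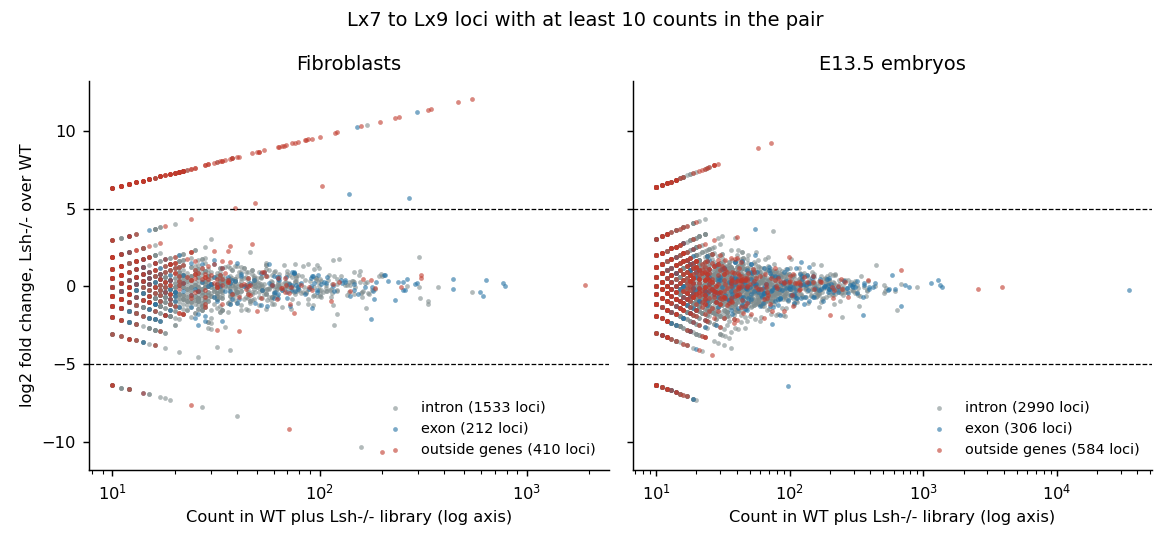
Count of each tested Lx7 to Lx9 locus in the pair of libraries (x axis, log scale) against its log2 fold change of Lsh-/- over WT (y axis), for fibroblasts and embryos, coloured by gene context; dashed lines mark 5 and -5. The slanting rows past the dashed lines are loci with 0 counts in 1 library, and the upper one in fibroblasts reaches 543 counts and is made mostly of loci outside genes.

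The fibroblast members divided by gene context. Outside genes 127 of 410 fibroblast members were above 5, 31.0% (26.7 to 35.6), with a median log2 fold change of 0.90 (0.65 to 1.26). In introns 24 of 1533 were above 5, 1.57% (1.05 to 2.32), with a median of -0.15 (-0.21 to -0.05). Introns of either orientation had low shares, 10 of 378 on the strand of the gene and 14 of 1155 on the other. Over exons 9 loci were above 5, 2 of 78 on the same strand and 7 of 134 on the opposite strand. Without chromosomes X and Y, 113 of 374 members outside genes (30.2%) and 20 of 1432 in introns were above 5. The same split ran through LINE loci at large, with 34.4% above 5 outside genes and 1.86% in introns. Embryos showed a smaller difference: 46 of 584 members outside genes were above 5, 7.88% (5.96 to 10.3), and 59 of 2990 in introns, 1.97% (1.53 to 2.54). Over all LINE loci of the embryos these shares were 8.77% and 2.21%, so the members stood near them here too. Below -5 the members did not divide in this way. Shares were 1.71% outside genes and 1.57% in introns in fibroblasts, and 2.91% and 2.24% in embryos.

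By name, the shares above 5 in fibroblasts were 7.40% of Lx7 (39 of 527), 5.82% of Lx8 (56 of 962) and 9.75% of Lx9 (65 of 667). Outside genes they were 25.9% (18.8 to 34.5), 26.8% (20.4 to 34.5) and 39.3% (31.7 to 47.4), so Lx9 had the highest value and its interval overlapped both others. In embryos outside genes the families had 8.12%, 7.54% and 8.14%. Among LINE-1 groups of other ages, the loci outside genes of L1Md, the young mouse families that include those still able to move, were above 5 at 53.8% in fibroblasts. The older Lx to Lx6 group stood at 38.8%, and L1MA and L1MB, older families shared among mammals, at 14.1%. The interval of the members, at 31.0%, overlapped neither that of L1Md (49.0 to 58.6) nor that of L1MA and L1MB (9.77 to 19.8), but did overlap that of Lx to Lx6 (35.2 to 42.6). The L1_Mur, L1_Rod and L1VL group stood at 36.7% (31.7 to 42.0). Loci of all other LINE-1 names stood at 32.4% (29.1 to 35.8), but they are a pool not sorted by age. Whether the shares follow age was not tested. For comparison, 81.1% of tested IAP loci, LTR retrotransposons of the intracisternal A-particle family, were above 5 in fibroblasts and 51.0% in embryos.

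**Figure D2:**
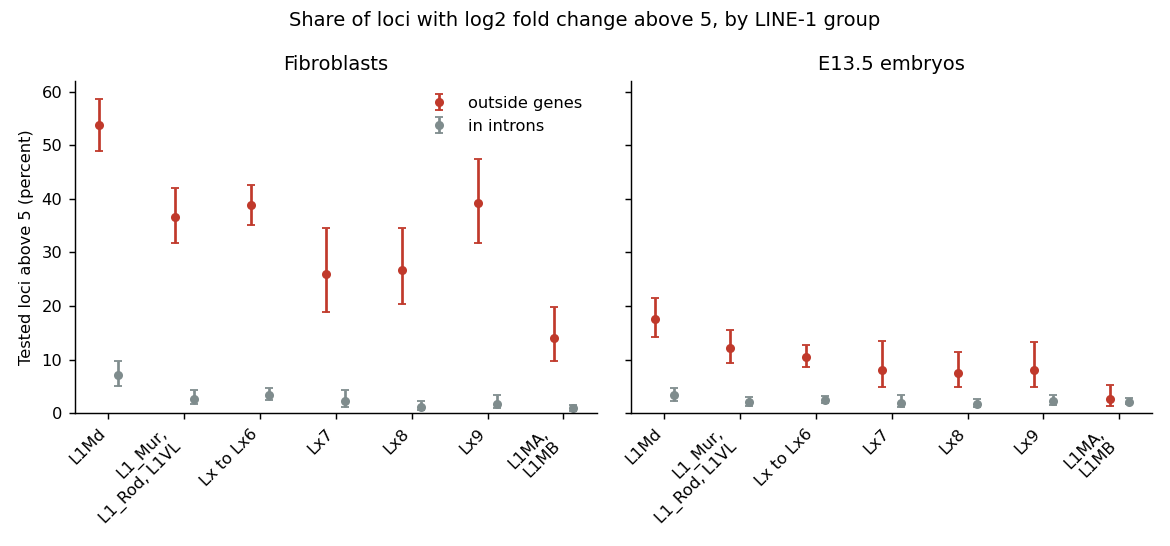
Percent of tested loci with a log2 fold change above 5 (y axis) for 4 LINE-1 groups and each of Lx7, Lx8 and Lx9 (x axis), outside genes (red) and in introns (grey), with 95% Wilson intervals over loci. In fibroblasts Lx7, Lx8 and Lx9 outside genes stand at 25.9%, 26.8% and 39.3%, below L1Md at 53.8% and above L1MA and L1MB at 14.1%, while in introns no group passes 7.10%. In embryos L1Md outside genes is highest, at 17.6%.

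The 6 fibroblast loci above 5 with the most counts had 265 to 543 counts in Lsh-/- and at most 5 in WT. The Lx8 on chr8:30632657-30633622, 302847 bases from the netrin receptor gene Unc5d, had 0 counts in WT and 543 in Lsh-/- fibroblasts, at least 175-fold higher when 0 is set to 3 counts per library. It had 0 counts in both embryo libraries. The Lx7 on chr14:113702284-113703424 had 0 and 464 counts in the fibroblasts (at least 150-fold higher), and again 0 in both embryo libraries. The Lx8 on chr7:13781010-13781913 had 0 and 347 counts (at least 112-fold higher) and the Lx7 on chr10:104248236-104249929 had 0 and 333 (at least 107-fold higher). In the embryos the first had 0 and 1 counts and the second 0 in both. These 4 lay outside genes, and only Lsh-/- fibroblasts carried more than 1 count on any of them.

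The other 2 overlapped exons on the opposite strand, and since the use of strand in the counting is not stated, their reads may be those of the gene. An Lx8 on chrX:132607183-132607580 in Nxf3, a gene of the mRNA export factor family, had 0 and 297 counts in the fibroblasts. It had 4 and 51 in the embryos (ratio 13.2, 4.87 to 50.4), so Lsh-/- was higher in both tissues. The gene is on chromosome X, and in the fibroblasts sex and genotype cannot be told apart. An Lx8 on chr8:123583568-123584428, over an exon of 1110050K14Rik, had 5 and 265 counts in the fibroblasts (ratio 51.3, 21.7 to 159). In the embryos it had 106 and 91 (ratio 0.891, 0.666 to 1.19), so there the libraries did not differ beyond counting error.

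Loci above 5 came in runs, mainly in fibroblasts. Runs were not counted over all tested members, so they are not shown to be particular to loci above 5. When loci of up to 50 kb apart were joined, the 160 fibroblast loci fell into 99 stretches, and 65 of them lay in 18 stretches of 3 or more. The 106 embryo loci fell into 95 stretches, with 6 loci in the only stretch of 3 or more. Neighbouring loci are therefore not independent, and the intervals over loci given above are too narrow to that extent. The stretches with the most loci had 6. One lay on chr7:13770509-13787010, near the vomeronasal receptor genes Vmn1r88 and Vmn1r89. Across its 6 loci above 5, WT fibroblasts had 0 counts and Lsh-/- fibroblasts 631, and no LTR locus above 5 lay within 10 kb. Fragments of both orientations carried reads there, 3 on the plus and 5 on the minus strand when those under 10 counts are included. The other, on chr12:120818587-120859765 and nearest Macc1, held 6 loci with 0 and 107 counts, and 2 LTR loci above 5 within 10 kb had 0 and 70.

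Of the 5 stretches of 4 loci, 4 had an LTR locus above 5 within 10 kb. On chr10:104232997-104249929, nearest Tmtc2, 4 loci had 0 and 629 counts, beside an IAPLTR1_Mm locus with 2 and 582. On chr10:124049091-124056594, nearest the monocarboxylate transporter gene Slc16a7, 4 loci had 0 and 512 counts, beside 2 LTR loci with 3 and 728. On chr15:20866185-20894633, nearest the cadherin gene Cdh12, 4 loci had 0 and 130 counts, beside 2 LTR loci with 0 and 2807. In these 3 stretches the embryos had 0 counts in WT and at most 1 in Lsh-/-. At the carboxylesterase gene Ces5a 4 loci had 0 and 66 counts, beside 2 LTR loci with 1 and 154. The stretch without such a neighbour lay in a cluster of olfactory receptor genes on chr2:87590050-87616168, where 4 Lx8 loci had 0 and 200 counts, and the 5 listed members had 0 and 13 in the embryos.

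The embryo stretch lay on chr9:19513219-19553202, around Olfr857. Its 6 loci had 0 counts in WT and 196 in Lsh-/- embryos, beside an IAPLTR1_Mm locus with 0 and 86. The Lx9 on chr9:19514748-19514961 had 0 and 72 counts, at least 24.9-fold higher, and the Lx8 on chr9:19518691-19518957 had 0 and 58, at least 20.1-fold higher. In the fibroblasts each of these had 0 and 2 counts, below the filter, and the 7 listed members of the stretch together 0 and 19. Both tissues thus had reads here in Lsh-/- only.

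Loci below -5 in fibroblasts also held a run, on chr10:37055224-37060801. Its 3 Lx8 loci had 200, 71 and 159 counts in WT and 0 in Lsh-/- fibroblasts, at least 68.8-, 24.4- and 54.7-fold lower, and 0 counts in both embryo libraries. The other run lay in Slc1a3, which encodes a glutamate transporter of glia. Across its 3 loci below -5, WT fibroblasts had 82 counts and Lsh-/- fibroblasts 0. The Lx9 of chr15:8624085-8624661 among them had 40 and 0 counts, and 21 and 25 in the embryos (ratio 1.24, 0.664 to 2.32). Intervals around it had 76 and 2 counts on 1 side and 50 and 0 on the other in the fibroblasts, so both were lower in Lsh-/- as well.

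**Figure D3:**
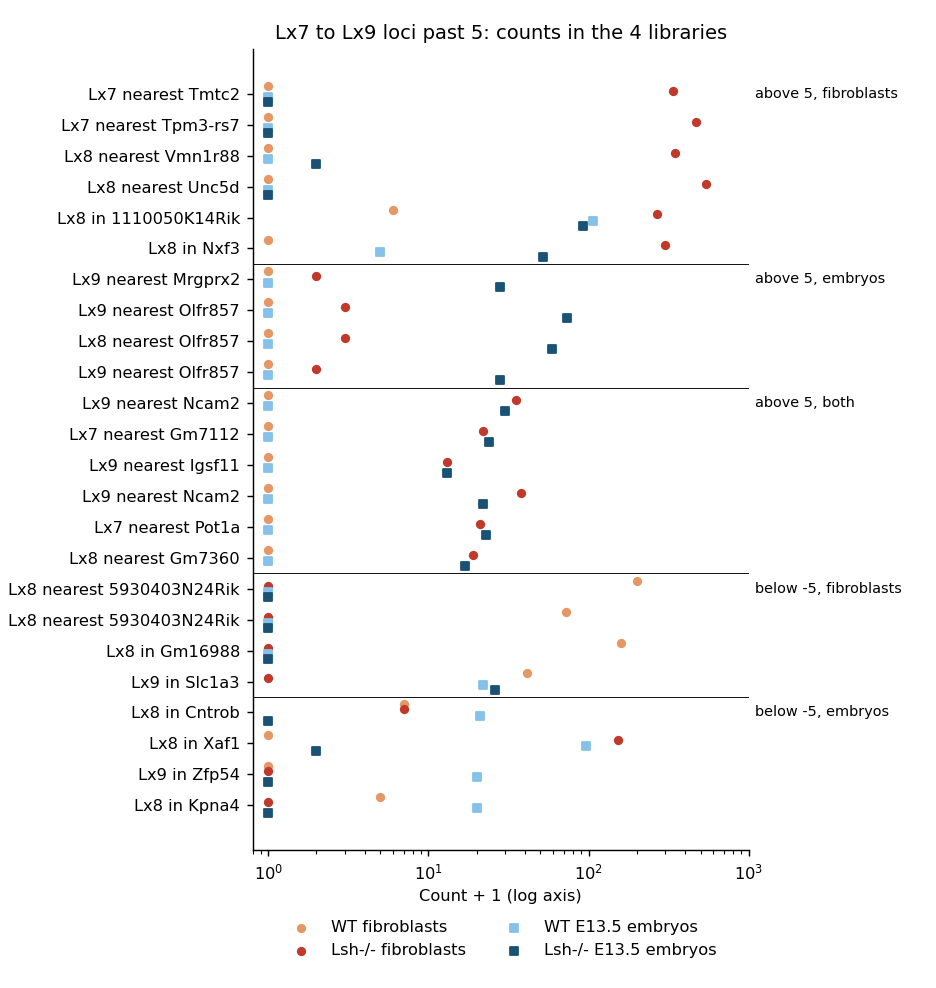
Counts (x axis, log scale of count plus 1) of 24 Lx7 to Lx9 loci past 5 or -5 in the 4 libraries; each row is 1 locus, labelled by the gene it lies in or the nearest protein-coding gene. In the top rows Lsh-/- fibroblasts stand highest at 265 to 543 counts, the Olfr857 loci are high in Lsh-/- embryos, and the Xaf1 locus is high in Lsh-/- fibroblasts and WT embryos.

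Part of the members above 5 lay near LTR loci above 5. Of the 160 in fibroblasts, 60 lay within 10 kb of an LTR locus above 5 in the same tissue, 37.5% (30.4 to 45.2). Of the 1250 members between -1 and 1, 1 did (0.0800%, 0.0141 to 0.452), and of the 32 below -5, 0 did, which allows up to 10.7%. Of the 60, 38 were nearest an IAP locus, 41 lay on its 3′ side, 17 on its 5′ side and 2 overlapped it. The element had the strand of the LTR in 32 of the 60. Without chromosomes X and Y 50 of 139 members above 5 and 1 of 1160 between -1 and 1 lay so near. In the embryos 13 of 106 members above 5 (12.3%, 7.31 to 19.9) lay within 10 kb of an LTR locus above 5, beside 3 of 2256 between -1 and 1 (0.133%). Gene context differed between the sets compared. In fibroblasts 127 of the 160 above 5 lay outside genes, and 1091 of the 1250 between -1 and 1 lay in genes. These shares were not computed for other LINE loci, so they are not shown to be particular to the members.

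Read the other way, distance to an LTR locus above 5 ordered the tested members outside genes. All 54 tested members that lay within 10 kb of such a locus were themselves above 5 in fibroblasts. At 10 to 50 kb 21 of 25 were, at 50 to 500 kb 27 of 106 (25.5%, 18.1 to 34.5) and beyond 500 kb 25 of 225 (11.1%, 7.64 to 15.9). In the embryos all 13 tested within 10 kb were above 5 and 33 of 571 beyond it (5.78%, 4.14 to 8.01). A member without reads in WT is tested only where Lsh-/- has at least 10 counts, and is then above 5. The shares nearest an LTR thus rest in part on the filter, and members below it are not counted. Bins of under 20 loci, such as the 14 within 1 kb in fibroblasts, are thin. Of members outside genes within 10 kb of an LTR locus between -1 and 1, and of none above 5, 0 of 10 were above 5 in fibroblasts and 0 of 16 in embryos, which are too few to set a share below 27.8% and 19.4%. Both kinds of locus were counted in the same libraries, so this is a description of those libraries, and which of them the RNA began in was not tested.

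**Figure D4:**
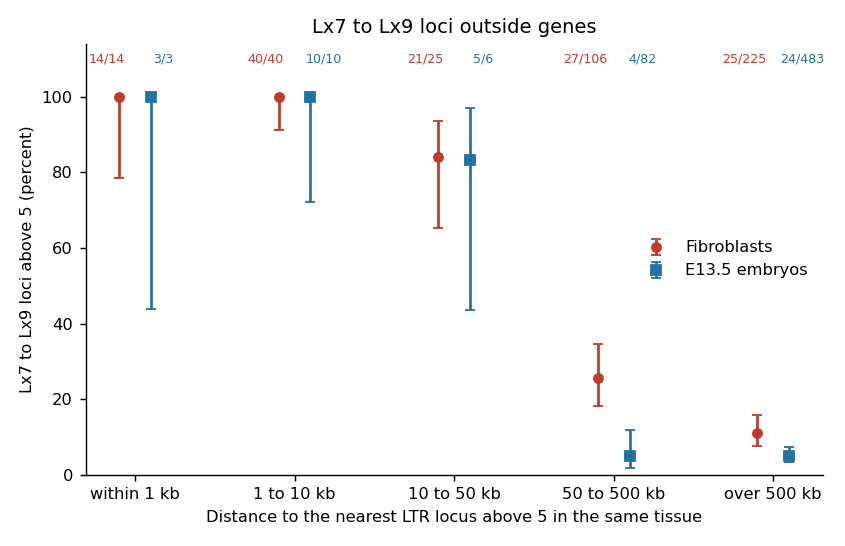
Percent of tested Lx7 to Lx9 loci outside genes with a log2 fold change above 5 (y axis) by distance to the nearest LTR locus above 5 in the same tissue (x axis), with 95% Wilson intervals over loci and the numbers of loci above each point. In fibroblasts the share is 100% within 10 kb and falls to 11.1% beyond 500 kb; the embryo bins within 50 kb hold few loci.

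Other LINE loci above 5 lay near the members too. Within 10 kb of a fibroblast member above 5 lay at least 1 other LINE locus above 5 in 124 of 160 cases, 77.5%, against 3 of 1250 members between -1 and 1. In the embryos these were 24 of 106, 22.6%, and 69 of 2256. With LTR and LINE neighbours together, 132 of the fibroblast members and 26 of the embryo members above 5 had a neighbour above 5. A LINE locus without WT reads is tested only through Lsh-/- reads and is then above 5, so these counts rest partly on the filter. Gene context differed as well: in fibroblasts 127 of the 160 lay outside genes, and 159 of the 1250. Such neighbours were not counted for other LINE loci, so they are not shown to be particular to the members.

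Intervals of about 1 kb lying 10 kb to either side of each repeat were counted as well, and they ask whether a change reaches past the element. For all Lx7 to Lx9 repeats whose intervals are listed, whether or not the element itself had a read, 1206 of 17436 tested intervals were above 5 in fibroblasts, 6.92% (6.55 to 7.30), beside 6.56% of intervals of all LINE loci. In embryos 480 of 24206 were, 1.98% (1.81 to 2.17), beside 1.98%. Share and background thus lay close in both tissues. For the 22177 members alone, which are listed as elements, the share in fibroblasts was 3.93% of intervals at lower coordinates and 3.88% at higher ones, beside 3.89% and 3.91% for all LINE loci, and below the 7.42% on the elements. In embryos it was 1.48% and 1.47%, beside 1.50% and 1.53%. Without intervals that overlap an exon, the share for all listed intervals was 11.5% in fibroblasts and 3.23% in embryos. On members that overlap no exon it was 7.77% and 2.94%. Intervals and elements differ in width and in overlap with exons, so their shares are not like for like.

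Where an element was above 5 in fibroblasts, most of its tested intervals were too, except at lower coordinates of elements in genes. Of the 160 elements, 53 had a tested interval at lower coordinates, and 42 of these intervals (79.2%) were above 5. At higher coordinates 56 of 60 (93.3%) were. In genes these were 3 of 10 and 9 of 10, and outside genes 39 of 43 and 47 of 50. In the embryos the numbers over all elements above 5 were 9 of 40 (22.5%) and 11 of 45 (24.4%). Split by context, the embryos had 8 of 15 and 9 of 20 outside genes, and 1 of 25 and 2 of 25 in genes. Of the 160 fibroblast elements, 50 had no count in the interval at lower coordinates and 52 had none at higher ones. An interval without WT reads is tested only through Lsh-/- reads and is then above 5, so these shares rest partly on the filter. Over all members with both values, Spearman's rho between element and interval was 0.35 and 0.37 in fibroblasts (1193 and 1169 loci). Outside genes it was 0.71 and 0.68 (169 and 164 loci), and in genes 0.27 and 0.29. In embryos it was 0.06 and 0.05. These are correlations across loci within the same libraries, and loci are not independent replicates. Around the Lx7 near Tmtc2, for example, the interval at lower coordinates had 0 and 50 counts, and for the Lx8 near Unc5d the interval at higher coordinates had 0 and 190. The Lx7 on chromosome 14, itself 10406 bases from Tpm3-rs7, was an exception. Its interval at higher coordinates had 4899 and 4414 counts, without the change seen on the element. An interval 10 to 11 kb from the element can reach that gene, so these counts may be those of the gene.

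Members above 5 had fewer CpG than members between -1 and 1 in fibroblasts. There their median was 3.39 CpG per kb, against 6.33 for members between -1 and 1. Outside genes the medians were 3.37 (quartiles 0.00 and 5.44, 127 loci) and 5.51 (2.22 and 9.85, 159 loci), and the median GC content 37.8% and 42.2%. In genes they were 4.43 (33 loci) and 6.49 (1091 loci). In embryos outside genes the medians were 4.67 (46 loci) and 5.66 (285 loci). In genes of the embryos, where most of the embryo members above 5 lay, they were 6.21 (60 loci) and 6.43 (1971 loci), with a GC content of 43.4% and 43.1%, so there the values were close. Median widths outside genes were 466 and 449 bases in fibroblasts and 278 and 466 in embryos. The quartile ranges overlapped throughout.

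Most members above 5 in 1 tissue could not be compared in the other. Of 1711 members tested in both, 28 were above 5 in fibroblasts and 15 in embryos, and 6 were above 5 in both, which is 21.4% of the first list and 40.0% of the second. Over all 1711 members 1.64% were above 5 in fibroblasts and 0.877% in embryos. Of LINE loci at large tested in both tissues, 107 were above 5 in both, 50.5% of 212 in fibroblasts and 66.5% of 161 in embryos (the difference was not tested). Across the 1711 loci, Spearman's rho between the log2 fold changes was 0.00 and Pearson's r 0.11, a description over loci. Of the 160 fibroblast loci above 5, 98 had no read in either embryo library, 32 had reads in Lsh-/- embryos only and 5 in WT embryos only.

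The 6 shared loci all had 0 counts in both WT libraries and all lay outside genes. A pair of neighbouring Lx9 fragments on chromosome 16, 3311 and 2854 bases from an IAPLTR1_Mm locus above 5, had the most reads. The first, on chr16:80301202-80301329, had 34 counts in Lsh-/- fibroblasts and 29 in Lsh-/- embryos. The second, on chr16:80301693-80301786, had 37 and 21. The Lx7 on chr12:116164217-116164424 overlapped an RLTR40 locus above 5 and had 21 and 23 counts. The Lx7 on chr6:25896672-25897470, nearest Pot1a, had 20 and 22 counts, and the nearest LTR locus above 5 lay 5622475 bases away in fibroblasts. The Lx8 on chr8:58036769-58037736 had 18 and 16, and the Lx9 on chr16:39654055-39654149 had 12 and 12. Against a floor of 3 counts these are at least 3.87- to 11.9-fold higher in fibroblasts and at least 4.15- to 10.0-fold in embryos.

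**Figure D5:**
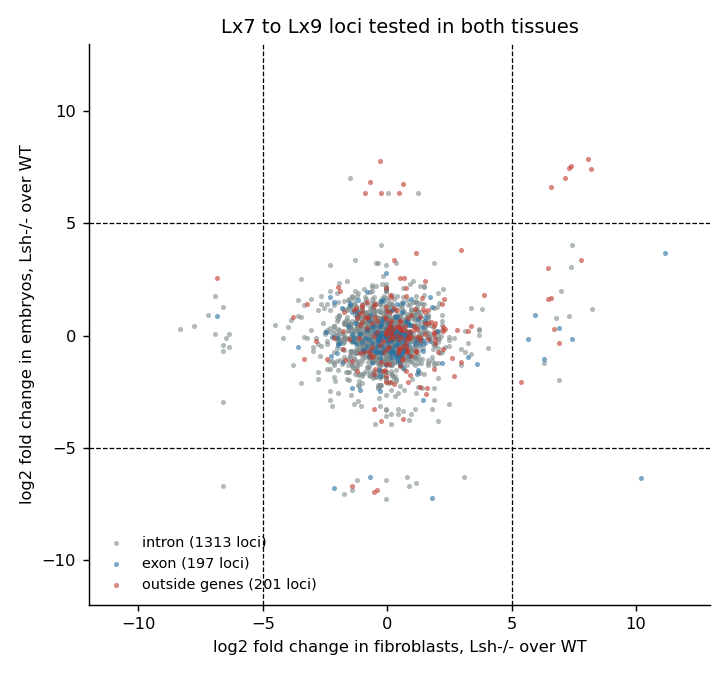
Log2 fold change of Lsh-/- over WT in fibroblasts (x axis) and embryos (y axis) for the 1711 Lx7 to Lx9 loci tested in both, coloured by gene context; dashed lines mark 5 and -5. Most loci form a round cloud at 0, 6 loci lie above 5 in both, and the single point at lower right is the Xaf1 locus at 10.22 and -6.37.

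Some genes held several members. In the fibroblasts 96 genes had 3 or more tested members in introns, and in the embryos 237. The gene with the most members was Smc1a, on chromosome X, which encodes a subunit of cohesin. Its 10 members had 302 counts in WT and 477 in Lsh-/- fibroblasts, with a median log2 fold change of 0.60, and 654 and 496 in the embryos, with a median of -0.27. Here too sex and genotype cannot be told apart in the fibroblasts. In Herc6, an interferon-induced ubiquitin ligase, 3 members had 21 and 75 counts in the fibroblasts with a median of 3.07. In the non-coding gene Gm11751, 3 had 0 and 60. In Lims1, which encodes the adhesion adaptor PINCH1, 3 members had 55 and 15 counts with a median of -2.02. In the embryos 3 members in Mertk, a receptor tyrosine kinase for the uptake of dying cells, had 3 and 66 counts, with a median of 4.35. The 8 members in the collagen gene Col12a1 had 211 and 208, with a median of 0.11. Over the whole embryo, a change in RNA per cell and a change in the number of cells of a type cannot be told apart.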

How the data were processed

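RNA-seq of 4 libraries, 1 per group, was analysed. The authors prepared strand-specific, paired-end libraries by the dUTP method, mapped reads to mm9 with TopHat 1.4.0 with no mismatch allowed, retained reads of unique placement and joined them to the repeatmasker annotation. The deposited values are raw counts per locus, in 6 tables per library. Whether a pair counts once and whether strand was used are not stated. Reads of near-identical copies are lost by unique placement, and reads of strain variants by the ban on mismatches. A locus that is not listed was given 0 counts. Starts count from 0 in the files (of 859 plus-strand IAPLTR loci longer than 4 kb, 98.0% then open with TG, and 0.698% if counted from 1), and coordinates are printed from 1. The study describes its flanking intervals as of the width of the repeat. In the files, all 661 LINE repeats of at least 20 counts that lay wholly 10 to 11 kb below another repeat, and all 612 above, had no more counts than its interval, against 83.3% to 87.6% in the adjoining kb. Intervals were therefore read as 10 to 11 kb away, upstream being lower coordinates on either strand.

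Pairs of libraries were scaled by TMM over intervals of LINE-1 loci (edgeR 4.0.16, R 4.3.3), to effective sizes of 19481559 for WT and 20118423 for Lsh-/- fibroblasts, and 27051956 and 26054891 for the embryos. Log2 fold changes used a small prior count, set at the default for the exact test in edgeR, and loci of at least 10 counts in the pair. Within a tissue 1 library per group leaves no residual degrees of freedom. A fit of genotype over both tissues, with tissue as a block, would leave 1 and take the difference between tissues as error, and was not run. Shares have 95% Wilson intervals, medians order-statistic intervals and ratios of single loci Clopper-Pearson intervals. They cover counting error or the spread over loci only. Genes and sequence came from GENCODE vM1 and the mm9 genome (pysam 0.24.0, Python 3.11.15, SciPy 1.17.1), and 173 LINE loci on unplaced chromosomes were not annotated. Functions were tested on simulated data.

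Named loci were, per tissue, the 4 with the most counts, the 6 with the most counts above 5 and the 4 below -5, the most counted of each name, and up to 6 above 5 in both tissues; 1 of them is not reported here. Members and lists were chosen with earlier results of these data known. The Xaf1 locus, the stretches and the genes with several members were picked after their values were seen, the genes for having the most members or the highest or lowest medians. Alternatives were another prior count, scaling, filter and treatment of 0 counts, and leaving out chromosomes X and Y, exons or LTR overlaps.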

Additional observations from a re-analysis of the deposited data

Results flagged for a closer look

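An Lx8 locus on chr11:72126149-72126386, over an exon of Xaf1 on the opposite strand, was past the limit in opposite directions in the tissues. The fibroblast libraries held 0 counts (WT) and 151 (Lsh-/-), at least 48.7-fold higher in Lsh-/-, with a log2 value of 10.22. In the embryos it had 96 counts in WT and 1 in Lsh-/-, a log2 value of -6.37, with a ratio of WT over Lsh-/- of 92.5 and a 95% counting interval of 16.2 to 3690. The difference between the tissues was not tested, since each has 1 library per genotype. Xaf1 is an interferon-induced gene, and reads on the element and on the exon cannot be told apart. Of the 1711 members tested in both tissues, 1 met this criterion, and it was picked after its values were seen.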

How the results depend on the processing

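In the order fibroblasts then embryos, a prior count of 1 gave 2.13% and 0.0515% of members above 5, 19.2% and 19.9% above 1, 18.9% and 17.9% below -1, and 2.34% and 0.273% of flanking intervals above 5. With no filter on low counts these were 4.58% and 8.84%, 32.7% and 34.9%, 44.9% and 42.2%, and 6.36% and 7.24%, with medians of -0.50 and -0.27. With at least 50 counts they were 9.32% and 0.264%, 13.8% and 5.93%, 7.06% and 8.30%, and 3.08% and 0.332%, with medians of 0.10 and -0.07. With a count of 0 set to 3 counts, 0.881% and 0% of members and 0.912% and 0.124% of intervals were above 5, and the fibroblast median was -0.05, just past its interval. With LINE totals as library size, 23.2% of fibroblast members were above 1 and 18.5% below -1, and the medians were 0.07 and 0.06. With the total over 6 tables the fibroblast values were 37.9%, 10.1% and 0.63. Without chromosomes X and Y 6.45% of fibroblast intervals were above 5, and without intervals over exons 11.5% and 3.23%. The other 45 values stayed within the 95% interval of the reported one, among them the shares of members above 5 under both scalings and without chromosomes X and Y, exons or LTR overlaps. The lower share with a prior count of 1 or a floor follows from its construction, since loci at 0 then need more counts to pass 5. An analysis of genotype paired by tissue was not run, and with 1 library per group no replicate could be left out. Depth limits every single locus under about 50 counts.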

Other observations

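Members above 5 with no other LINE or LTR locus above 5 within 10 kb differed between the tissues in where they lay. In fibroblasts they were 28 of 160, of which 15 lay outside genes, 9 in introns and 4 over exons. They had 0 counts in WT and 591 in Lsh-/-, with a median of 13 and 1 locus of at least 50 counts. In embryos they were 80 of 106, of which 24 lay outside genes, 55 in introns and 1 over an exon. These had 0 and 1033 counts, with a median of 11 and no locus above 25. Of all 2156 tested fibroblast members, 410 lay outside genes and 1533 in introns. Of all 3880 tested embryo members, 584 lay outside genes and 2990 in introns. At 10 to 19 counts the embryos had 91 members above 5 and 89 below -5, so loci this sparse passed the limit in both directions. The members with a neighbour had 10 counts in WT and 6906 in Lsh-/- fibroblasts (132 loci, 112 outside genes), and 0 and 523 in the embryos (26 loci, 22 outside genes).

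In the embryos, genes with 3 or more members included some with opposite medians. In Setbp1, which encodes a SET-binding protein, 3 members had 8 counts in WT and 49 in Lsh-/- with a median log2 fold change of 2.51. In Ccdc138 4 members had 40 and 9 counts with a median of -3.79, and in Tasp1, which encodes a threonine protease, 3 had 32 and 5 with a median of -6.31. Over 237 such genes, 30 had a median above 1 and 30 below -1. In fibroblasts 9 of 96 were above 1 and 14 below -1.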
